A study of Mus musculus with 8 samples.

Results

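The replication histone genes encode the linker histone H1 and the core histones H2A, H2B, H3 and H4 that package newly copied DNA. They were taken here as every gene of the mouse Hist1 to Hist4 clusters, by old name or by the current names of the H1f1 to H1f6, H2ac, H2bc, H3c and H4c genes, that had a probe naming it alone on the array. This gave 27 genes of 19938 measured in all, and each of the 27 rested on 1 probe. The reference annotation (GRCm38.p6) lists 64 genes under the same names. Many cluster genes are near-identical copies, and 26 probes that name several histone genes at once are described apart from the 27 genes. By type there were 5 genes of H1, 4 of H2A, 9 of H2B, 3 of H3 and 6 of H4. Of the 27 genes, 23 lie on chromosome 13 in the Hist1 cluster and 4 on chromosome 3 in the Hist2 cluster, namely H2bc18, H2bc21, H3c15 and H4c14.

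The genes were measured in migratory primordial germ cells (PGCs), the precursors of sperm and eggs, sorted from mouse embryos at embryonic day 9.5. The 4 WT embryos were Ror2+/+ and the 4 mutant embryos were Ror2Y324C/Y324C, homozygous for an amino acid change in a receptor tyrosine kinase that binds Wnt5a. All embryos came from crosses of Ror2Y324C/+ females with Ror2Y324C/+ males that were Oct4-ΔPETg/Tg, so every embryo carried the Oct4-ΔPE reporter, whose GFP served to sort the cells from the posterior part of each embryo. The strain background was mixed and each embryo had a microarray of its own, which makes the embryo the unit of replication. WT 1 to 4 had 25, 25, 22 and 21 somites, and mutants 1 to 4 had 24, 22 to 23, 23 and 21 to 22 somites. The mutation is carried by the whole embryo, so the germ cells and the tissues around them were both mutant.

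Replication histone genes are transcribed mainly during S phase, when cyclin E and its kinase act on the coactivator Npat at nuclear bodies that gather around the gene clusters. Their transcripts generally, though not in every case, have no introns and end in a stem-loop in place of a poly(A) tail. The stem-loop is bound by Slbp, and the U7 small nuclear ribonucleoprotein, which holds Lsm10 and Lsm11, directs the cut that forms the end. Replacement histones such as H3.3 and H2A.Z come from genes outside these clusters and are made throughout the cell cycle. A few cluster genes are known as germ-line forms: H1f6 (Hist1h1t) encodes the testis linker histone H1t, and H2ac1 (Hist1h2aa) and H2bc1 (Hist1h2ba) encode the variants TH2A and TH2B. PGCs divide while they migrate.

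The promoters of these genes share short elements that the choice of genes did not use, and the bases before the start of 6 genes are shown for that reason. H1f1 and H2ac4 gave the smallest p-values between mutant and WT, H4c8 the smallest for somite number, H2bc14 and H4c4 had bright probes, and H2bc8 shares its promoter with another member. Each stretch holds the 150 bases before the RefSeq start (GRCm38.p6), 5′ to 3′ on the + strand of chromosome 13, which is the coding strand of all 6. The positions are chr13:23763518-23763667 for H1f1, chr13:23750938-23751087 for H2ac4 and chr13:21721894-21722043 for H2bc14. H2bc8 is at chr13:23571250-23571399, H4c4 at chr13:23581418-23581567 and H4c8 at chr13:23530894-23531043. Capitals mark the TATA element TATAAA, the CCAAT box (the letters CCAAT), the octamer ATTTGCAT and an element known from H1 promoters, AAACACA, each searched on both strands, and none of these matches overlapped.
H1f1: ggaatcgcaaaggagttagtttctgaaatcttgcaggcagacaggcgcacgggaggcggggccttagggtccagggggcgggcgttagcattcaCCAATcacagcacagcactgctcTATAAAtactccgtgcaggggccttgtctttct
H2ac4: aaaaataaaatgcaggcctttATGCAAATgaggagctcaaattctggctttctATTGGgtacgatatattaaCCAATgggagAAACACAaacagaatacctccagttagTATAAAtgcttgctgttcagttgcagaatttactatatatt
H2bc14: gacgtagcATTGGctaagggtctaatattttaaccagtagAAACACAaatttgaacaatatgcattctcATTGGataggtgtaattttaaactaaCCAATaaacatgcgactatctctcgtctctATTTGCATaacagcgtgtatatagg
H2bc8: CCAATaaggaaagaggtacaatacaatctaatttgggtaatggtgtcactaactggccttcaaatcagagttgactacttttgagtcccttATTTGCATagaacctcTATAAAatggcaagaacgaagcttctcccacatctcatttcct
H4c4: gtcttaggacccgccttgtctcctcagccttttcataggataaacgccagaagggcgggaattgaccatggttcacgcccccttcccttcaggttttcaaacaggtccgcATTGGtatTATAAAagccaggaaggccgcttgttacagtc
H4c8: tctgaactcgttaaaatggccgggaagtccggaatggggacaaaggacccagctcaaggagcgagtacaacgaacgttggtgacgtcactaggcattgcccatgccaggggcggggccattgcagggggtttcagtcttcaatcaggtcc

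RefSeq promoter windows were matched for 23 of the 27 genes, and the 250 bases before the start were searched. TATAAA was found in 14 of the 23 windows (60.9%), compared with 12.4% of all 32851 windows searched in the same way. CCAAT stood in 19 windows (82.6%, against 33.8% of all), among them all 5 H1, all 4 H2A and all 7 H2B windows, but 2 of 5 for H4 and 1 of 2 for H3. The octamer, the binding sequence of POU factors such as Oct1, was present in 8 windows (34.8%, against 1.6% of all), 3 of the 4 of H2A and 5 of the 7 of H2B. No window of H1, H3 or H4 held these letters. AAACACA stood in 8 windows (34.8%, against 6.25% of all), including 4 of 5 for H1, where it began at position -112 in H1f2, -122 in H1f3, -117 in H1f5 and -114 in H1f6, counted back from the start. H4c8, printed above, held none of the 4 elements in its 150 bases. H2ac1 and H2bc1 are transcribed away from each other and share 220 bases of their windows, which also hold the 50 bases after the start, and H2ac8 and H2bc8 share 279, so these windows are not independent. A match of letters is a description of the sequence and not a measured binding site.

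The deposited values are log2 probe intensities, used as deposited. Array medians ran from 5.37 to 5.58. All 13 germ cell markers were measured, among them Pou5f1 (10.91 to 11.37) and Dppa3 (11.07 to 11.57), and their summed level was 126 to 130 in WT and 128 to 130 in mutants. WT 3 stood apart from the other arrays. It had the narrowest spread over genes (SD 1.77, others 1.82 to 1.95) and the highest summed level of 7 measured markers of primitive red cells (38.2, with WT from 33.6 and mutants from 33.5 to 35.2), in which the embryonic globin Hba-x was 6.65 against 4.95 to 5.55 elsewhere. Macrophage markers (8 of 8 entries measured) were also highest in WT 3, with sums of 37.4 to 41.7 in WT and 37.0 to 39.8 in mutants. Among these entries Adgre1 and its old name Emr1 are the same gene, which the sums therefore repeat. Ror2 itself ran from 7.38 in WT 2 to 8.29 in mutant 3 with overlapping groups, and a level of this transcript does not check a point mutation. A lower value in a sorted sample can come from fewer cells of a type or from less RNA in each, and these cannot be told apart.

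The replication histone genes differed more between embryos than most genes did, by their range over all arrays and by their spread pooled within groups. The range over the 8 arrays exceeded 1 on the log2 scale for 17 of 27 genes (63.0%), compared with 24.5% of all genes and 36.2% of the 9969 genes above the median level. Their median range was 1.18 (0.72 over all genes) and their median residual SD within groups was 0.41, against 0.24 for all genes and 0.28 for genes above the median level. This is a description and was not tested, since genes of 1 cluster can move together and are not independent. Members with dim probes were H1f3, H2ac8, H3c7, H3c15 and H1f6, the 5 that lay below the median level of all genes (5.61).

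The spread had a common direction on some arrays. WT 1 was above the gene's own mean over all arrays for 22 of 27 members, and WT 4 for 19, whereas WT 2 was above it for 10 and WT 3 for 9. Mutants 1 to 4 were above it for 18, 13, 17 and 13 members. The median deviation of the members was 0.24 in WT 1, -0.20 in WT 2, -0.20 in WT 3 and 0.14 in WT 4. It was 0.12, -0.04, 0.10 and 0.00 in mutants 1 to 4, so the WT embryos spanned a wider interval than the mutants and enclosed it. WT 3 held the lowest value of 9 members and the highest of none, where it was lowest for 12.1% and highest for 24.2% of all genes. Over all genes WT 1 to 4 were above the mean for 41.1%, 49.3%, 60.3% and 55.8%, and mutants 1 to 4 for 50.2%, 41.6%, 44.3% and 55.5%. The germ cell markers and the replacement histones were low in WT 3 too (both -0.26). Quantile normalization left the median deviation of the members in WT 3 at -0.21. WT 1 and WT 2 had the same number of somites and stood at opposite sides.

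**Figure D1:**
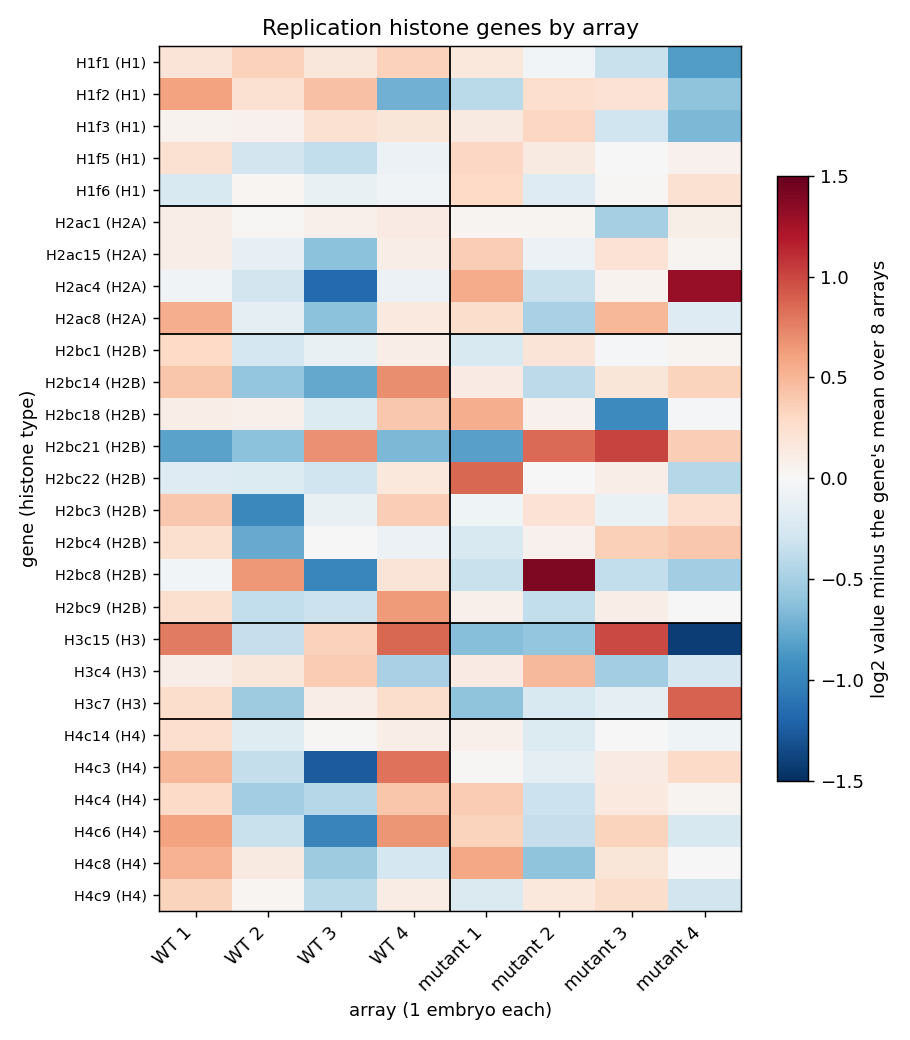
Log2 value of each of the 27 replication histone genes minus the gene's mean over 8 arrays, with genes in rows by histone type and arrays in columns (4 WT, then 4 mutant). Red is above and blue below the mean, and WT 1 is above it for 22 genes while WT 3 is above it for 9.

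The pattern over the WT embryos was visible in the H4, H2B and H2A genes. The median deviation of the 6 H4 genes was 0.42 in WT 1, -0.26 in WT 2, -0.48 in WT 3 and 0.26 in WT 4, and 0.20, -0.26, 0.16 and -0.04 in mutants 1 to 4. The 9 H2B genes gave 0.24, -0.37, -0.20 and 0.19 in WT 1 to 4, and the 4 H2A genes 0.10, -0.13, -0.62 and 0.11. For the 5 H1 genes the values were 0.20, 0.06, 0.17 and -0.05, and their lowest array was mutant 4, at -0.60. The 3 H3 genes had 0.35 in WT 3 and -0.60 in mutant 1, in a different order from the other core types, and 2 of these 3 lay below the median level of all genes.

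No replication histone gene differed between mutant and WT PGCs after adjustment over all genes. Of the 27 members, 15 were higher and 12 lower in mutants, with a median difference (mutant minus WT) of 0.04, compared with -0.02 over all genes, of which 44.6% were higher. Among genes above the median level the median was 0.04 as well and 57.4% were higher. Centring each array on its median gave 18 higher and 9 lower. At an adjusted p under 0.05, limma called 0 of 27 members and 0% of all genes, and the adjusted p-values of the members ran from 0.973 to 0.998. At an unadjusted p under 0.05, 1 member was higher (H2ac4) and 1 lower (H1f1) in mutants, where 2.72% and 1.96% of all genes met these criteria. All mutants lay below all WT embryos for 1 member (1.44% of all genes) and above them for 0 (1.08%). The median difference of the members depended on single embryos: it was -0.10 without WT 3 and -0.04 without WT 2.

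Among the linker histones, which bind DNA between nucleosomes, H1f1 (Hist1h1a) was lower in mutants. Its log2 values were 9.05, 9.20, 9.03 and 9.20 in WT 1 to 4 and 9.01, 8.81, 8.53 and 8.02 in mutants 1 to 4. The mutants all lay below the WT embryos, mutant 1 by only 0.02, and they were spread more widely. The mean difference was -0.53 ± 0.20 (SE, n = 4 and 4), a 1.44-fold lower level, with an unadjusted p of 0.024 and an adjusted p of 0.973 (limma). Without mutant 4 it was -0.34 (unadjusted p = 0.057), and without WT 3 it was -0.56.

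H1f5 (Hist1h1b), another somatic H1 gene, leaned the other way. It measured 10.18, 9.67, 9.58 and 9.86 in WT and 10.26, 10.09, 9.94 and 10.01 in mutants, so WT 1 reached into the mutant range. The difference was 0.25 ± 0.16 (95% interval -0.10 to 0.60, adjusted p = 0.973, limma). It was 0.37 without WT 1 (unadjusted p = 0.025) and 0.17 without WT 3 (unadjusted p = 0.32). H1f2 (Hist1h1c), looked at after its values were seen, ran from 6.73 to 8.06 in WT and from 6.86 to 7.71 in mutants, a full overlap. Its lowest WT value was that of WT 4, and its difference was -0.27 ± 0.30 (limma). The difference was -0.56 without WT 4 (unadjusted p = 0.039) and -0.11 without WT 1 (unadjusted p = 0.73). H1f6, the testis form, ran from 5.15 to 5.41 in WT and from 5.19 to 5.68 in mutants, with a mean below the median level of all genes and a difference of 0.18 ± 0.15. The median over the 5 H1 genes was -0.26, with 2 higher and 3 lower.

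In the H2A family, which pairs with H2B in the nucleosome core, H2ac4 (Hist1h2ab) had the smallest p of the members that were higher in mutants. Its values were 7.54, 7.32, 6.42 and 7.51 in WT 1 to 4 and 8.15, 7.25, 7.65 and 8.90 in mutants 1 to 4. WT 3 was the lowest array and mutant 4 the highest, while mutant 2 lay below 3 of the WT embryos. The difference was 0.79 ± 0.35 (1.73-fold), with an unadjusted p of 0.047 and an adjusted p of 0.973 (limma). Without WT 3 it was 0.53 (unadjusted p = 0.145), and without mutant 4 it was 0.49 (unadjusted p = 0.139).

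H2ac15 (Hist1h2ak) measured 8.55, 8.33, 7.83 and 8.54 in WT and 8.82, 8.36, 8.67 and 8.49 in mutants, and the groups overlapped (0.27 ± 0.19, or 0.11 without WT 3, limma). The germ-line form H2ac1 was the steadiest H2A gene, at 7.07, 6.99, 7.05 and 7.09 in WT and 7.01, 7.01, 6.46 and 7.06 in mutants. Mutant 3 alone stood apart, and the difference of -0.17 ± 0.15 did not pass the test (adjusted p = 0.973, limma). H2ac8 (Hist1h2ae) ran from 3.61 to 4.76 in WT and from 3.73 to 4.72 in mutants. Of the 4 H2A genes, 3 were higher in mutants and 1 lower, with a median of 0.15.

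The H2B genes were the largest group, with 6 of 9 higher in mutants and a median difference of 0.12. H2bc14 (Hist1h2bm) measured 11.02, 10.01, 9.83 and 11.30 in WT and 10.71, 10.20, 10.77 and 10.93 in mutants. All mutants lay inside the span of the WT embryos, which covered a range of 1.47, and the difference was 0.12 ± 0.32 (95% interval -0.59 to 0.82). H2bc9 (Hist1h2bh) also spread more among WT embryos, with 10.19, 9.58, 9.63 and 10.58 in WT and 10.03, 9.58, 10.05 and 9.95 in mutants. Its SD was 0.48 among WT and 0.22 among mutant embryos.

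H2bc21 (Hist2h2be), on chromosome 3, had the largest difference among the H2B genes, at 0.70 ± 0.42 (unadjusted p = 0.126, adjusted p = 0.973, limma). The values fell into low and high arrays in both genotypes: 5.02, 5.21, 6.51 and 5.15 in WT and 5.01, 6.67, 6.83 and 6.19 in mutants. WT 3 and mutants 2, 3 and 4 were high, and mutant 1 was as low as the other WT embryos. Without mutant 1 the difference was 1.09 (unadjusted p = 0.010), and without WT 3 it was 1.05 (unadjusted p = 0.022). Leaving out any other embryo gave no unadjusted p under 0.05, and the difference was 0.48 without mutant 3 (unadjusted p = 0.30). H2bc8 (Hist1h2bg), singled out for mutant 2 at 7.74, was between 5.37 and 6.53 in WT 1, 3 and 4, higher in WT 2, and between 5.82 and 6.01 in the remaining mutants. Its neighbour H2ac8, which shares the promoter window, was 3.73 in mutant 2, near the low end of its range, on a dim probe with no known floor.

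H2bc1, the TH2B gene, had nearly equal means in both groups, with 6.17, 5.61, 5.76 and 5.98 in WT and 5.64, 6.07, 5.85 and 5.92 in mutants. The difference was -0.01 ± 0.16 (95% interval -0.36 to 0.34, limma), and its sign turned under quantile normalization (0.04) and median centring (0.05). The 3 germ-line forms, H1f6, H2ac1 and H2bc1, had smaller ranges over the arrays (0.53, 0.63 and 0.56) than the median member (1.18). H2bc18 (Hist2h2bb) was 7.30 in mutant 1 and 5.80 in mutant 3, which enclosed its WT values of 6.56 to 7.16. H2bc4 (Hist1h2bc) ran from 8.54 to 9.54 in WT and from 9.07 to 9.71 in mutants, with a difference of 0.30 ± 0.23, or 0.10 without WT 2.

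The 3 H3 genes with a probe of their own were all lower in mutants on average, with a median of -0.08. H3c15 (Hist2h3c2) had the widest gap of means among all members, and a dim probe. It measured 5.01, 3.88, 4.57 and 5.08 in WT and 3.59, 3.65, 5.22 and 2.81 in mutants, and mutant 3 was the highest array of all. The difference was -0.82 ± 0.45 (unadjusted p = 0.097, adjusted p = 0.973, limma). It was -1.28 without mutant 3 (unadjusted p = 0.0025), -1.07 without WT 2 (unadjusted p = 0.044) and -0.48 without mutant 4 (unadjusted p = 0.276). H3c4 (Hist1h3d), the H3 gene with the brightest probe, measured 6.77, 6.84, 7.05 and 6.19 in WT and 6.80, 7.16, 6.15 and 6.41 in mutants, with full overlap and a difference of -0.08 ± 0.24. H3c7 lay between 2.11 and 3.59 on all arrays.

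The H4 genes all encode the same protein. H4c4 (Hist1h4d) measured 12.60, 11.80, 11.89 and 12.73 in WT and 12.70, 11.99, 12.46 and 12.36 in mutants. WT 1, WT 4 and mutant 1 were high, WT 2, WT 3 and mutant 2 were low, and the difference was 0.12 ± 0.24 (adjusted p = 0.979, limma). H4c14 (Hist2h4), on chromosome 3, had the smallest residual SD of the members, 0.15, with 10.29, 9.85, 10.06 and 10.15 in WT and 10.11, 9.84, 10.05 and 9.98 in mutants. The order of the arrays resembled that of H4c4 over a smaller range, and the difference was -0.09 ± 0.14. Among the other H4 genes H4c3 spanned 6.05 in WT 3 to 8.13 in WT 4, and H4c6 spanned 7.55 to 9.21 between the same embryos. Of the 6 H4 genes, 4 were higher in mutants and 2 lower, with a median of 0.05.

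**Figure D2:**
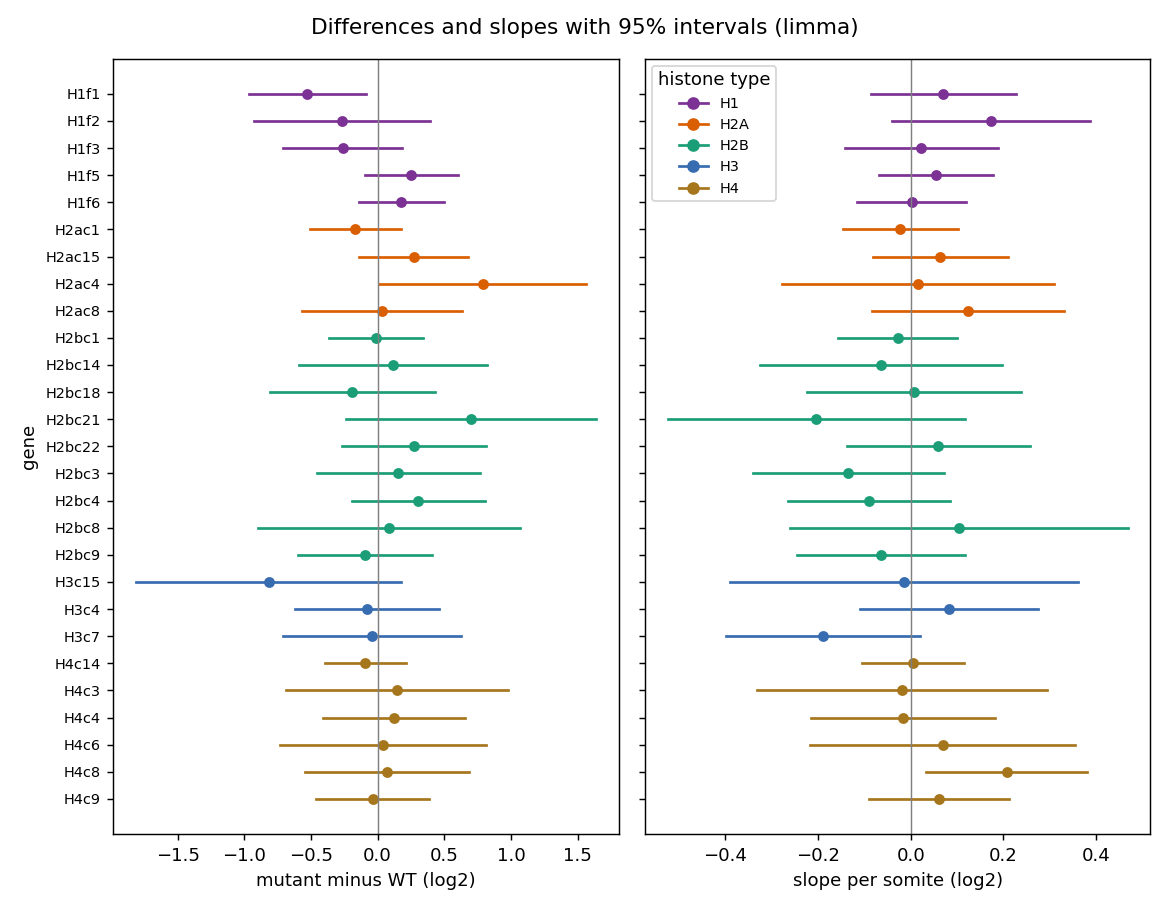
Left, the difference between mutant and WT means (log2), and right, the slope per somite (log2), for each of 27 genes, with 95% intervals from limma and colours for the histone type. The interval excludes 0 for H1f1 and H2ac4 in the difference and for H4c8 in the slope, before any adjustment over genes.

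The probes that match several histone genes comprised 2 for H2A, 7 for H2B, 10 for H3, 6 for H4 and 1 for mixed types. They sum transcripts of many copies and cannot be assigned to 1 gene. The median of the 10 H3 probes was 11.47, 10.87, 10.51 and 11.77 in WT 1 to 4 and 11.45, 11.08, 11.34 and 11.43 in mutants 1 to 4. WT 4 exceeded WT 3 by 1.28 on the log2 scale, or 2.43-fold, and the mutants lay between them. For the 7 H2B probes the median was 11.85, 11.10, 11.16 and 11.92 in WT and 11.59, 11.27, 11.65 and 11.52 in mutants.

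For H2B, WT 1 and WT 4 were the high and WT 2 and WT 3 the low WT embryos, as for H3. For H4 the 5 probes with many symbols had medians of 11.94, 11.52, 11.51 and 12.07 in WT and 11.88, 11.32, 11.77 and 11.67 in mutants. WT 4 exceeded WT 3 1.63-fold for H2B and 1.52-fold for H4. The differences between mutant and WT were 0.15 to 0.23 for the H3 probes, -0.05 to 0.01 for H2B and -0.11 to -0.06 for the 5 H4 probes. The remaining H4 probe, which names 2 genes, measured 6.43, 6.82, 6.56 and 6.51 in WT and 6.39, 5.94, 6.32 and 6.26 in mutants, another order of the arrays. All mutants lay below all WT embryos there, by 0.04 at the nearest, with a difference of -0.35 ± 0.14 (unadjusted p = 0.040, adjusted p = 0.956, limma). In a limma fit over all 35557 probes, chosen after seeing the data, 0 of the 26 shared probes passed an adjusted p under 0.05 (0% of all probes). At an unadjusted p under 0.05, that 1 of 26 did (4.53% of all probes), and for the somite slope 0 of 26 did (8.12%). Many of these probes match the same transcripts, and 4 had values equal to another probe's to 2 decimals, so they are not independent of each other.

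**Figure D3:**
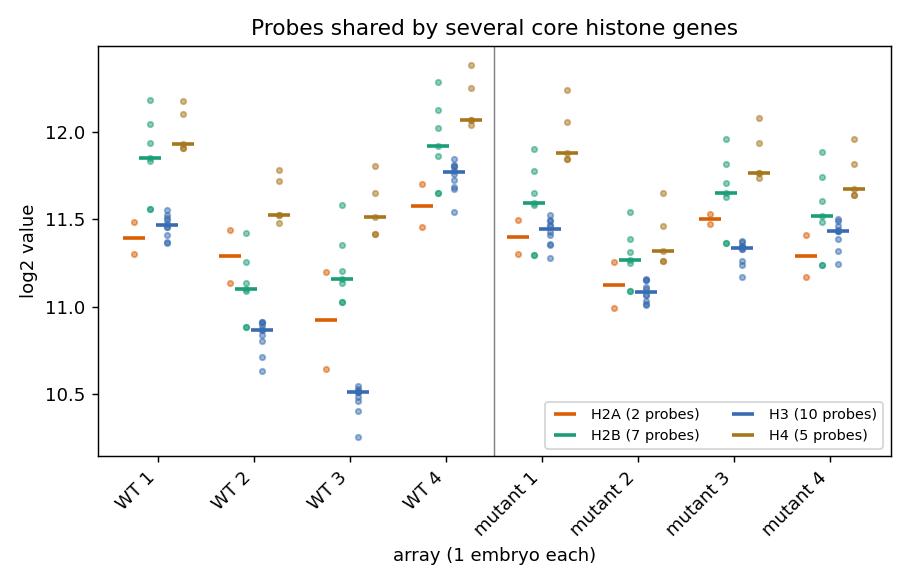
Log2 values of the probes shared by several core histone genes on each array (points), with the median of each type as a bar, for 2 H2A, 7 H2B, 10 H3 and 5 H4 probes. WT 3 and WT 4 lie at opposite ends for H3 (10.51 and 11.77), and the mutants lie between them.

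The embryos ranged from 21 to 25 somites, with group means of 23.25 in WT and 22.75 in mutants, and the slope per somite was estimated in a fit that also held genotype. No member had a slope that passed adjustment over all genes. Of 27 members, 16 had a positive and 11 a negative slope, with a median of 0.01 per somite (all genes: -0.02, 40.5% positive). Among genes above the median level the median slope was 0.02 and 58.6% were positive, near the members' share of 59.3%. Median centring gave 20 positive and 7 negative. At an adjusted p under 0.05 limma called 0 members and 0% of all genes. At an unadjusted p under 0.05, 1 member had a positive slope (5.02% of all genes) and 0 a negative one (4.72%), and adjusted p-values ran from 0.478 to 0.991.

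H4c8 (Hist1h4h) was that member. It measured 7.66 and 7.27 in the WT embryos of 25 somites, 6.61 at 22 and 6.88 at 21, and in mutants 7.72 at 24, 7.32 at 23, 6.54 at 22 to 23 and 7.14 at 21 to 22. The slope was 0.21 ± 0.08 per somite (unadjusted p = 0.024, adjusted p = 0.478, limma). It was 0.18 without WT 3 (unadjusted p = 0.062), 0.17 without WT 1 (unadjusted p = 0.10) and 0.17 without mutant 1 (unadjusted p = 0.066). H1f2 had a slope of 0.17 ± 0.10 (unadjusted p = 0.099, limma), which was 0.022 without WT 4. All 5 H1 genes had positive slopes, with a median of 0.05, but signs turned under other settings. The slope of H1f3 was negative without mutant 1 or mutant 4. That of H1f6 was negative without WT 2, mutant 1 or mutant 2, and in the fit without genotype. With the replicate number as a block, the slopes of H1f1 (-0.15), H1f3 (-0.29) and H1f5 (-0.02) were negative.

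The other types showed no common direction. H2A had 3 positive slopes of 4, H3 1 of 3 and H4 4 of 6. The H2B genes had 3 of 9, with a median of -0.06, and H2bc3 (Hist1h2bb), at -0.14 ± 0.09 (-0.28 without WT 1, unadjusted p = 0.0013, and -0.00652 without WT 2), was 7.14 in WT 2 and between 8.01 and 8.52 on all other arrays. H4c4 had a slope of -0.02 ± 0.09, with 12.73 in the embryo of fewest somites and 12.60 and 11.80 in those of most. Refitted without WT 4, the youngest embryo, 5 members had an unadjusted p under 0.05 for the slope (H2ac15, H2ac8, H4c6 and H4c8 positive, H2bc21 negative), and the median slope was 0.11. In that refit 5.4% of all genes had a positive and 5.2% a negative slope at this p.

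**Figure D4:**
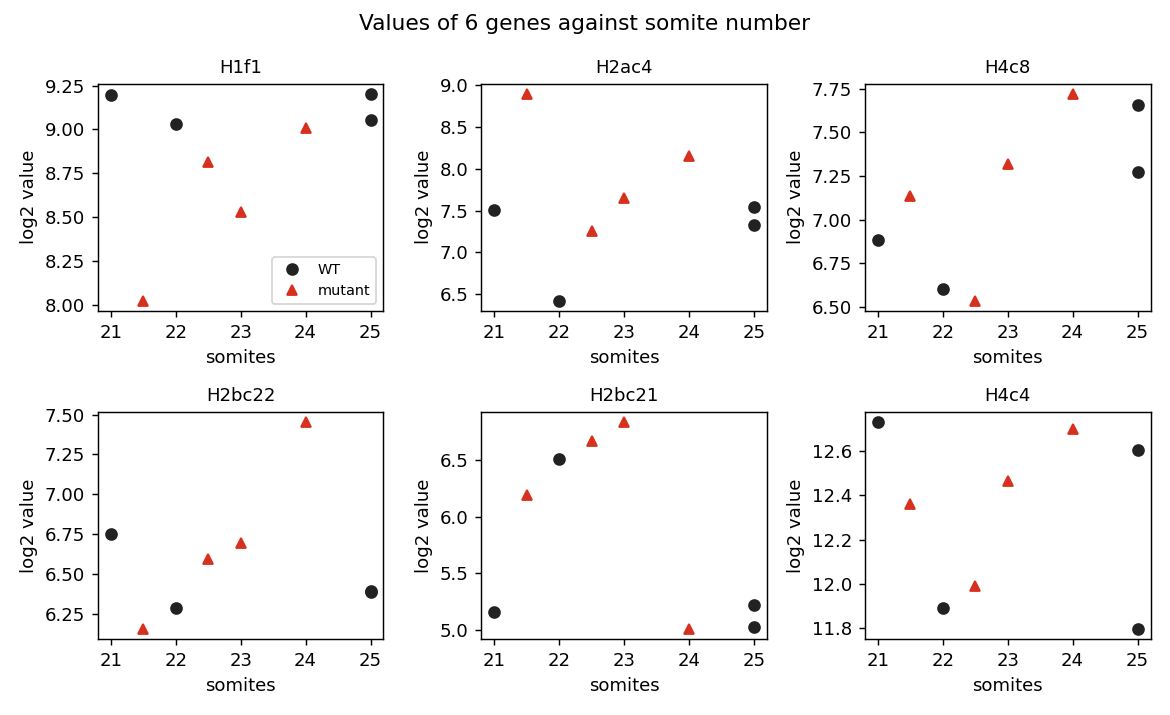
Log2 values of 6 members against somite number, with black circles for WT and red triangles for mutant embryos (n = 4 each, midpoint where a range is given). H4c8 has the smallest p for the slope, and H4c4 shows high and low values at both ends of the somite range.

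Whether the slope differed by genotype was tested with an interaction term, which leaves 4 residual degrees of freedom. Of the members, 3 had an unadjusted p under 0.05 (4.52% of all genes) and 0 passed adjustment. The smallest p belonged to H2bc22 (Hist1h2bp), which measured 6.39, 6.38, 6.29 and 6.75 in WT and 7.45, 6.60, 6.69 and 6.16 in mutants. Mutant 1, the mutant with the most somites, was the highest array and mutant 4, the one with the fewest, the lowest. The mutant slope exceeded the WT slope by 0.56 ± 0.13 per somite (unadjusted p = 0.0021, adjusted p = 0.856, limma), or by 0.42 without mutant 1 (unadjusted p = 0.069).

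H1f1 was the second, with a mutant slope steeper by 0.36 ± 0.14 (unadjusted p = 0.027, adjusted p = 0.999, limma). Mutant 4, the youngest mutant, had the lowest value of 8.02, and without it the difference in slope was 0.18 (unadjusted p = 0.394). H3c7, with a dim probe, differed by -0.47 ± 0.18 (unadjusted p = 0.031), and by -0.18 without mutant 4 (unadjusted p = 0.515).

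The genes that make and trim histone transcripts gave no call either. Of 17 listed and 17 measured, 14 were higher and 3 lower in mutants, with a median of 0.10. Over all genes 44.6% were higher, and 57.4% of those above the median level, where all 17 lay. At an unadjusted p under 0.05, 0 of the 17 were called, against 2.72% of all genes higher and 1.96% lower. Slbp, which binds the stem-loop, measured 8.62, 8.48, 8.31 and 8.26 in WT and 8.60, 8.72, 8.78 and 8.72 in mutants. Only WT 1 reached the mutant values, and the difference was 0.29 ± 0.13 (unadjusted p = 0.050, adjusted p = 0.973, limma). Npat was 6.80 in WT 4 and between 7.91 and 8.42 on all other arrays, a difference of 0.39 ± 0.28. The Npat value was thus lowest in an embryo whose shared H3, H2B and H4 probes were highest.

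Casp8ap2, a component of the histone locus body, had a difference of -0.28 ± 0.17, and the U7 proteins Lsm10 and Lsm11 had 0.14 ± 0.23 and -0.11 ± 0.14. Mif4gd, a partner of Slbp in translation, had the smallest p for the slope in this list, 0.28 ± 0.07 per somite (unadjusted p = 0.0039, adjusted p = 0.400, limma), and Lsm10 had -0.15 ± 0.07. The list held 1 positive slope (5.02% of all genes) and 1 negative (4.72%) at an unadjusted p under 0.05. Cstf2, a cleavage factor, and Ncbp2, a subunit of the cap-binding complex, were higher by 0.40 ± 0.20 and 0.33 ± 0.16, with unadjusted p-values of 0.078 and 0.061.

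Few replacement histones had wide ranges between embryos, a description that was not tested. Of 12 listed, 10 were measured, without H3f3b and H1f0. The range exceeded 1 for 1 of the 10, against 17 of the 27 cluster genes, and their median residual SD was 0.22. H2az1, the H2A.Z gene, ran from 11.48 to 11.93 and differed by -0.01 ± 0.14. H3f3a, an H3.3 gene, differed by 0.04 ± 0.17. Of the 10, 7 were higher and 3 lower in mutants (44.6% of all genes were higher), with a median of 0.03.

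Histone chaperones, which carry histones to DNA, were measured for 17 of 18 genes, 12 higher and 5 lower, with a median of 0.07. All 17 lay above the median level of all genes, where 57.4% of genes were higher. Asf1b ran from 8.25 in WT 3 to 9.30 in WT 1, with a difference of 0.02 ± 0.22, and Chaf1a and Nasp differed by 0.10 ± 0.18 and 0.16 ± 0.13. Cabin1, a subunit of the Hira complex, had the smallest p for the slope, 0.12 ± 0.05 per somite (unadjusted p = 0.025, adjusted p = 0.479, limma). It was the only chaperone with an unadjusted p under 0.05 for the slope (5.02% of all genes positive, 4.72% negative).

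The list of G1/S and DNA replication genes, whose transcripts mark cells entering S phase, repeats Slbp from the list of histone transcripts. Of its 39 genes, 38 were measured. Of these, 24 were higher and 14 lower in mutants with a median of 0.04, and 30 had a positive slope. All 38 lay above the median level of all genes. Of the 9969 genes above that level, 57.4% were higher in mutants and 58.6% had a positive slope. At an unadjusted p under 0.05, 6 were positive (5.02% of all genes) and 1 negative (4.72%), namely Uhrf1, a factor that binds hemimethylated DNA, at -0.30 ± 0.11 per somite. Of the 9969 genes above the median level, 901 were positive and 314 negative at this p. Prim1, the catalytic primase subunit, measured 9.61, 9.66, 9.15 and 9.35 in WT and 10.14, 9.79, 9.84 and 9.78 in mutants. All mutants lay above all WT embryos (1.08% of all genes), with a difference of 0.44 ± 0.16 (unadjusted p = 0.017, adjusted p = 0.973, limma). Of the 38 genes, only Prim1 had an unadjusted p under 0.05 between mutant and WT (2.72% of all genes higher, 1.96% lower). Pcna, the replication clamp, differed by -0.03 ± 0.12 and the helicase subunit Mcm2 by 0.10 ± 0.18. Rrm2, a ribonucleotide reductase subunit, differed by 0.17 ± 0.22 and was lowest in WT 3, at 8.95.

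Ccne1, which encodes cyclin E, had a slope of 0.17 ± 0.07 per somite (unadjusted p = 0.031, adjusted p = 0.485, limma), and the primase subunit Prim2 had 0.31 ± 0.07 (unadjusted p = 0.0020, adjusted p = 0.374). By array, the median deviation of the 38 genes was 0.16, -0.06, -0.19 and -0.01 in WT 1 to 4 and 0.04, 0.00, 0.19 and -0.09 in mutants 1 to 4. Among the WT embryos WT 1 was the highest and WT 3 the lowest for these genes, while the histone genes were as low in WT 2 as in WT 3. WT 4 was not high for these genes, while the cluster histones there stood at 0.14. The germ cell markers also had their lowest median deviation in WT 3, at -0.26. The red cell, macrophage and trunk mesenchyme markers (the last 7 of 7 above their means, median deviation 0.29) were highest in WT 3. Endothelium markers (6 of 6 measured) had their highest sum in mutant 2 (32.5, with 32.3 in WT 3) and their highest median deviation in WT 3 (0.13). Hindgut endoderm markers (8 of 8 measured) were highest in WT 4, with sums of 51.6 to 56.9 in WT and 52.2 to 54.6 in mutants. The part of these markers in the histone values was not tested.

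**Figure D5:**
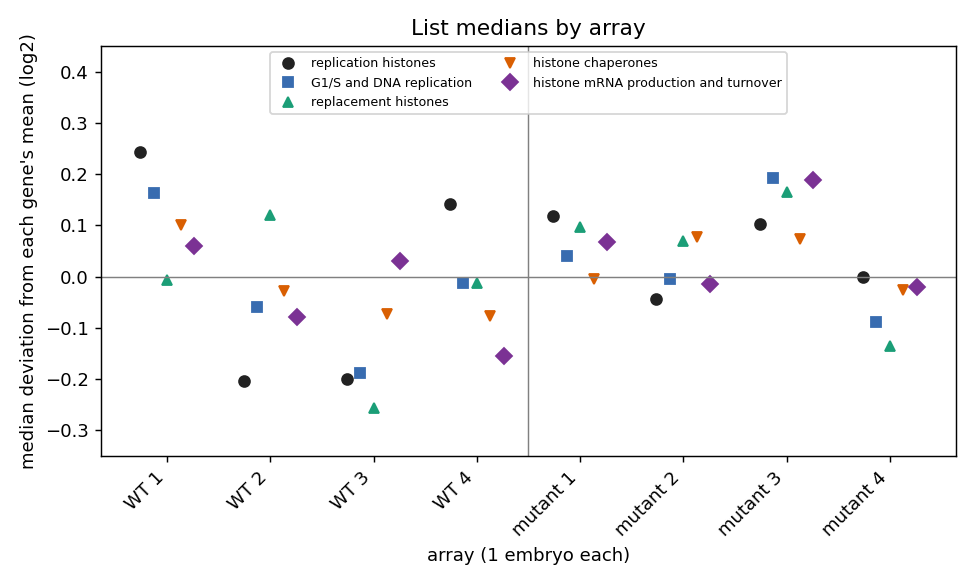
Median over the genes of each list of the deviation from the gene's mean over 8 arrays (log2), by array, for the 27 replication histones and 4 companion lists. Slbp is in the G1/S list and in that of histone mRNA production and turnover. The histones and the G1/S genes are both low in WT 3 (-0.20 and -0.19), and the histones alone are above 0 in WT 4 (0.14).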

How the data were processed

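Transcripts were measured in sorted primordial germ cells of 8 embryos, 4 WT and 4 mutant, with 1 microarray for each. Per the labels' protocols, RNA was purified with the RNeasy Micro Kit, then amplified and labelled with NuGEN systems. No unit is named for the deposited values, and their range led to reading them as log2. The authors' background correction and normalization were not given in the sources used here, and no detection limit could be set. The number of arrays limits the precision, and the median SE of a difference was 0.17.

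Of 35557 probes, 21789 had 1 gene symbol in the platform annotation, 1621 had several and 12147 were unnamed here. Each of 19938 genes was represented by its single-symbol probe of highest mean (999 had several). Old names and chromosomes were taken by gene ID from a RefSeq table (GRCm38.p6), which matched all 27 members, since the annotation uses current symbols.

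R 4.3.3 and limma 3.58.1 (lmFit, then eBayes, prior degrees of freedom 4.48) fitted all genes at once, for mutant minus WT without covariates, for the slope per somite with genotype, and for their interaction. P-values were adjusted over all genes by Benjamini-Hochberg, with a threshold of 0.05, and intervals cover 95%. Each SD is taken across 4 embryos. The scripts were tested on simulated data. The labels call the replicates biological and number the embryos.

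Genes were named by rule: per histone type the 2 members of highest mean, the member of smallest p in each direction of a contrast, every member with an unadjusted p under 0.05, the 3 germ-line forms, fixed companion genes and at most 2 of smallest p per companion list. H1f2, H2ac8, H2bc4, H2bc8 and H2bc22 (differences) and remarks on H1f3, H4c3, H4c6 and H2bc3 were added after their values were seen. The members and lists were chosen with earlier results of these data known. Alternatives were quantile normalization, median centring, the mean over probes, genes above the median level, somite number as a covariate, slopes without genotype, array weights, the replicate number as a block and each array left out.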

Additional observations from a re-analysis of the deposited data

Results flagged for a closer look

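Within each group of 4 embryos, the highest or lowest value was compared with its neighbour for each member, as the gap to that neighbour over the whole range, against Dixon's 95% critical value. Of 54 groups looked at, 3 held such a value, where chance gives about 1 in 20. H2ac1, the TH2A gene, was 6.46 in mutant 3, below 7.01 to 7.06 in the other mutants (ratio 0.909). H2bc21 was 6.51 in WT 3, above 5.02 to 5.21 in the other WT embryos (ratio 0.869), and 3 mutants had values of that size. H2bc8 was 7.74 in mutant 2, above 5.82 to 6.01 in the other mutants (ratio 0.902).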

How the results depend on the processing

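No member passed an adjusted p under 0.05 in either contrast under any of the alternatives run, and over all 54 member values (27 differences and 27 slopes) and 16 settings the adjusted p ran from 0.401 to 1.00. The count of members at an unadjusted p under 0.05 for mutant against WT was 2, and 1 with quantile normalization, median centring, genes above the median level, somite number as a covariate or array weights. It ran from 0 (without mutant 4) to 3 (without WT 1) when each embryo was left out. For the slope it was 1, but 3 with array weights and 1 to 5 with embryos left out (5 without WT 4, 3 without WT 1). Over all genes the slope called 0, and 0 to 2 with embryos left out (2 without WT 4, and 1 without WT 3, mutant 1 or mutant 4).

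Signs turned often among small values: 33 of the 54 turned under some setting, the largest of them 0.19 in size. The H2bc1 difference was 0.0392 with quantile normalization, 0.0522 with median centring and 0.0184 with array weights. The slopes of H2ac1 and H4c4 became 0.00146 and 0.00766 with median centring. With embryos left out, differences ran from -0.10 to 0.0879 for H2bc1, -0.16 to 0.22 for H2ac8, -0.12 to 0.37 for H2bc14, -0.0292 to 0.28 for H4c4, -0.37 to 0.32 for H2bc8, -0.26 to 0.0775 for H3c4, -0.23 to 0.10 for H2bc9 and -0.40 to 0.10 for H2bc18. Slopes ran from -0.0902 to 0.13 for H4c4, -0.0274 to 0.14 for H3c4 and -0.0189 to 0.20 for H2bc22. The median over members ran from -0.10 to 0.13 for the difference and from -0.03 to 0.11 for the slope. The cause was not tested.

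Same-numbered embryos did not deviate together (correlations over genes of -0.05, 0.04, -0.19 and 0.10), and in no same-numbered pair was each array the best match of the other. With the replicate block, 3 members had an unadjusted p under 0.05 for mutant against WT (H1f1, H2ac4 and H2bc21, the last at 0.021) and 2 for the slope, and 0 passed adjustment. Under the block 13 of 27 slopes changed sign, among them H2bc22 (-0.13), H3c4 (-0.23), H3c7 (0.0114) and H4c4 (0.00811). Signal over background was not used here, so dim probes (H3c7, H3c15, H2ac8, H1f3) have no known floor.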

Other observations

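Small nucleolar RNAs, a further class of transcripts without a poly(A) tail, ranked the arrays in another order than the replication histones. The mean log2 value of 51 small nucleolar RNA genes was 6.94, 7.01, 6.90 and 6.97 in WT 1 to 4. It was 6.73, 7.33, 6.63 and 6.52 in mutants 1 to 4, and mutant 2, the highest array by this mean, was not high for the histones (median deviation -0.04). The median deviation of the small nucleolar RNAs was 0.06, 0.20, -0.07 and 0.30 in WT 1 to 4. In mutants 1 to 4 it was -0.08, 0.27, -0.27 and -0.36. On that measure WT 4 was the highest array, and the histones stood at 0.14 there.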
